A study of Mus musculus with 10 samples.

Results

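Transcript levels in cerebellar granule cell precursors that lacked Bmi1 were compared with those in wild type precursors, in cultures that received no sonic hedgehog (Shh). The 6 arrays compared were those titled wild type 1, 3 and 5 and Bmi1 knockout 2, 4 and 6, out of 10 arrays in the series, and all genes measured were examined. Granule cell precursors are the dividing cells of the young cerebellum that give rise to its granule neurons. Both groups came from mouse pups of postnatal days 5 to 7 and were cultured for 24 hours in medium containing 10% fetal calf serum and 20 mM KCl, and 1 Affymetrix Mouse Genome 430 2.0 array was made per culture from 1.5 micrograms of total RNA. The other 4 arrays, 2 per genotype, came from cultures given Shh for 24 hours, and their culture time is also listed as 24 hours. For wild type replicate 3 the treatment field carries a conditional remark on Shh. Its title and characteristics have no Shh, and it was grouped accordingly. The labels call the cultures biological replicates without giving the number of animals behind each, so p-values measure the spread between these arrays, and the number of arrays limits the precision.

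Bmi1 is a subunit of Polycomb repressive complex PRC1, which together with PRC2 keeps developmental genes silent in cells that do not use them, the Hox clusters above all. It also holds down the Cdkn2a locus, whose transcripts encode the CDK inhibitor p16Ink4a and p19Arf, a protein that frees p53 from its ubiquitin ligase Mdm2. p53 in turn switches on genes of cell cycle arrest and cell death. In the cerebellum, loss of Bmi1 is known to limit the expansion of granule cell precursors.

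Some genes with little or no signal in wild type precursors were higher in knockout cultures. Among them were Cdkn2a, 7 Hox genes and transcription factors of other tissues such as Foxa2. Genes with so little signal have little room to fall. Of 11405 genes tested, 37 were higher and 6 lower in knockout than in wild type cultures (0.324% and 0.0526% of the genes tested, 0.377% in all), at an adjusted p below 0.05 in limma's moderated test. At an unadjusted p under 0.05 there were 990 of the 11405. Of all genes tested, 6342 differences lay above 0 and 5062 below. Counts for the gene lists below are to be read beside these numbers. Without both of the arrays that stand apart in 18S signal (wild type replicate 1 and knockout replicate 6) 10 genes were called, without replicate 1 alone 25 and without replicate 6 alone 19. With consecutive replicate numbers treated as pairs, 23 genes were called (0.202%), of which 21 were among the 43. Of the 43 genes, 1 had all its wild type arrays at the floor used for low signals. The filter on low signals used the mean over all 10 arrays (log2 6.25). A gene with little signal in wild type could therefore pass through its knockout arrays. Called genes with an untreated wild type mean under the filter included Robo3 (4.39), Igf2bp1 (5.08), Cdkn2a (5.15) and Pqlc3 (5.33). Among the 6788 genes with a mean signal under the filter, 13 rose and 2 fell in a separate fit of all 18193 genes. These were 0.192% for the rises and 0.221% in all. That fit called 44 genes, of which only 26 were among the 43, so the calls of the 2 fits cannot be added. Signals below are given in the order of replicates 1, 3 and 5 for wild type and 2, 4 and 6 for knockout. Differences are knockout minus wild type on the log2 scale, with the standard error of the model (SE), and "called" means an adjusted p below 0.05. In bulk RNA of this kind, fewer cells expressing a gene and less RNA per cell cannot be told apart.

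The median signal of the 6 arrays was 84.4 to 90.9. The 3′ control for 18S ribosomal RNA read 2030 on wild type replicate 1 and 6301 on knockout replicate 6, against 221 to 649 on the other 4. The part of this signal in the results was not tested beyond leaving out these arrays. Xist was high and Eif2s3y low on 2 of 3 arrays of each genotype (replicates 1 and 3, and 2 and 6), with the reverse on replicates 5 and 4. The precursor factor Atoh1 read 1462, 1730.1 and 1643 in wild type and 1431, 1935 and 1540.1 in knockout cultures, so the defining marker of the labelled cell type was present on every array. The 2 probe sets of Bmi1 read 91.2% (95% interval 78.1 to 107%) and 93.9% (73.0 to 121%) of the wild type level in knockout cultures. The sources used here do not state the deleted part of Bmi1, and the probe sets therefore do not check the genotype.

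Cdkn2a was near the lower end of the signal range in wild type cultures and clearly measured in all knockout cultures. It read 35.7, 30.2 and 41.6 in wild type and 273, 271 and 301 in knockout cultures, a 7.92-fold difference (95% interval 6.14 to 10.2, log2 2.98, SE 0.16, adjusted p = 9.56e-05). Its spread was small in both groups. A single probe set carried the gene, so the p16Ink4a and p19Arf transcripts were not measured apart. Cdkn2b, which encodes the related CDK inhibitor p15Ink4b and is the next coding gene beside Cdkn2a in RefSeq (GRCm38.p6), read 107, 82 and 17.7 and 322, 247 and 421. Its groups did not overlap, but wild type replicate 5 lay at the floor of 20.9 used for low signals, the spread was wide, and the difference of 2.50 (SE 0.55, adjusted p = 0.148) did not pass. With the floor raised to the 50th percentile of all signals it did pass (log2 1.86, adjusted p = 0.0133). The CDK inhibitor Cdkn1b had lower signals without overlap, 3001, 2600.2 and 2665 against 1933, 2249 and 2203, and did not pass (-0.37, SE 0.12, adjusted p = 0.358).

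The sequences before both transcription starts of Cdkn2a are shown because the starts belong to one locus and differ in composition. RefSeq windows of 300 bases, 250 before to 50 after each start, held 45 CpG dinucleotides at the upstream start and 12 at the downstream one, against a median of 21.3 over the windows of 9267 tested genes. From the order of the exons of this locus, the upstream start is that of the p19Arf transcript and the downstream one that of p16Ink4a. The 250 bases before each start are given 5′ to 3′ on the transcribed strand of GRCm38.p6, with each CG in capitals.
Cdkn2a, upstream start (chr4:89294620-89294869, minus strand): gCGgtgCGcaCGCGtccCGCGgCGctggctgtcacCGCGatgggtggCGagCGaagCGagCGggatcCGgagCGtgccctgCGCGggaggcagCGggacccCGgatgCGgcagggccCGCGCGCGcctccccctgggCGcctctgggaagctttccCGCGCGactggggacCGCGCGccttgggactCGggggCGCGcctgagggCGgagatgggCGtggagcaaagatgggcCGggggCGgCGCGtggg
Cdkn2a, downstream start (chr4:89282193-89282442, minus strand): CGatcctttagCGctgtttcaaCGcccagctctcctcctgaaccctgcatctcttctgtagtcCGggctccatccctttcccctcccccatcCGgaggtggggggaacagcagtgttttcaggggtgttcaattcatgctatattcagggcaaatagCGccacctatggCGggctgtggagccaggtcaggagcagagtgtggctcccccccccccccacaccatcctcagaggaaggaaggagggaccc

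Some targets of p53 rose in each of their branches. Of 28 targets tested in 2 lists, 9 were called higher and 0 lower, beside the 0.324% of all genes called higher. The lists were chosen with earlier results of these data known, so this share is not an independent test. In the list of arrest and repair genes 4 of 16 were called higher and 5 lay below 0. The median difference there was 0.20 (0.31 without replicate 6 and 0.32 without replicates 1 and 6). In that of death and survival genes 5 of 12 were called higher, all 12 differences were above 0 and the median was 0.42. Of its 3 members under the filter, Fas stood at 0.58, Dram1 at -0.22 and Tnfrsf10b at -0.002, and with no filter the median was 0.34. The median over all genes tested was 0.02.

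Among the arrest genes, Cdkn1a, the p21 inhibitor of cyclin-dependent kinases, had the largest difference. Its signals were 1184, 946 and 823 in wild type and 4817, 4186 and 5503 in knockout cultures, which is 4.94-fold (log2 2.30, SE 0.15, adjusted p = 0.000246). A second probe set of the gene, also above the filter, gave a log2 difference of 2.81. Zmat3, an RNA-binding protein under p53 control, stood at 1029, 1123 and 995 against 2114, 2023 and 2378 (log2 1.05, SE 0.10, adjusted p = 0.00167). Cyclin G1, encoded by Ccng1, measured 1229.7, 1547 and 1361 and 2105, 2657 and 2609 (log2 0.83, SE 0.13, adjusted p = 0.0339). Its 2 further probe sets gave 0.86 and 0.85. Psrc1, a microtubule-associated protein of the mitotic spindle, rose by 0.76 (adjusted p = 0.036). Of the 12 arrest and repair genes that did not pass, Polk, a translesion polymerase, stood at 0.57 (adjusted p = 0.246) and Sesn2, a stress-induced sestrin, at 0.55 (0.534).

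Among the death genes, the BH3-only protein Noxa, encoded by Pmaip1, had signals of 175, 217 and 134 in wild type and 642, 868 and 697 in knockout cultures, 4.24-fold (log2 2.08, SE 0.18, adjusted p = 0.00167). The receptor gene Eda2r read 219, 249 and 225 against 632, 599 and 657, 2.72-fold (log2 1.45, SE 0.09, adjusted p = 0.000246). Phlda3, whose product restrains the kinase Akt, was 2.47-fold higher, from 175, 198 and 227 to 524, 451 and 504 (log2 1.31, SE 0.11, adjusted p = 0.00167). Every knockout array lay above every wild type array for each of these. Aen, a nuclease of apoptotic cells, measured 695, 758 and 637 and 1594, 1699 and 1926 (log2 1.32, SE 0.12, adjusted p = 0.00167), and its other 3 probe sets above the filter gave 0.69 to 1.07. Bbc3, which encodes the BH3-only protein Puma, stood at 323, 297 and 383 against 559, 566 and 641 (log2 0.82, SE 0.11, adjusted p = 0.015). Of the 7 that did not pass, Trp53inp1 was nearest at 0.51 (adjusted p = 0.147) and Apaf1, the apoptosome scaffold, stood at 0.34 (0.315). Another BH3-only gene that was on neither list, Hrk, rose from 166, 193 and 159.8 to 309, 306 and 376 (log2 0.93, SE 0.14, adjusted p = 0.0339). The ligase gene Mdm2, itself a p53 target, had almost the same signal in both groups, 954, 846 and 869 against 916, 917 and 819 (-0.01, 95% interval -0.25 to 0.23).

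The p53 targets called without wild type replicate 1 and knockout replicate 6 were 3, namely Cdkn1a, Eda2r and Phlda3, and with only the 6 untreated arrays in the fit 6, with Ccng1, Bbc3 and Psrc1 lost. Leaving out 1 array at a time, Cdkn1a, Eda2r, Phlda3, Pmaip1, Aen and Zmat3 stayed called without any array. Bbc3 was lost without replicate 1, 4 or 6 (adjusted p up to 0.0856), Hrk without 1, 2, 4, 5 or 6 (up to 0.157), Psrc1 without any array but 2, 7 or 9 (up to 0.167), and Ccng1 without any but 2 or 3 (up to 0.155). With consecutive replicate numbers as pairs, Psrc1 (adjusted p = 0.0535) and Hrk (0.0787) did not pass, and the other 8 of these 10 genes did.

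**Figure D1:**
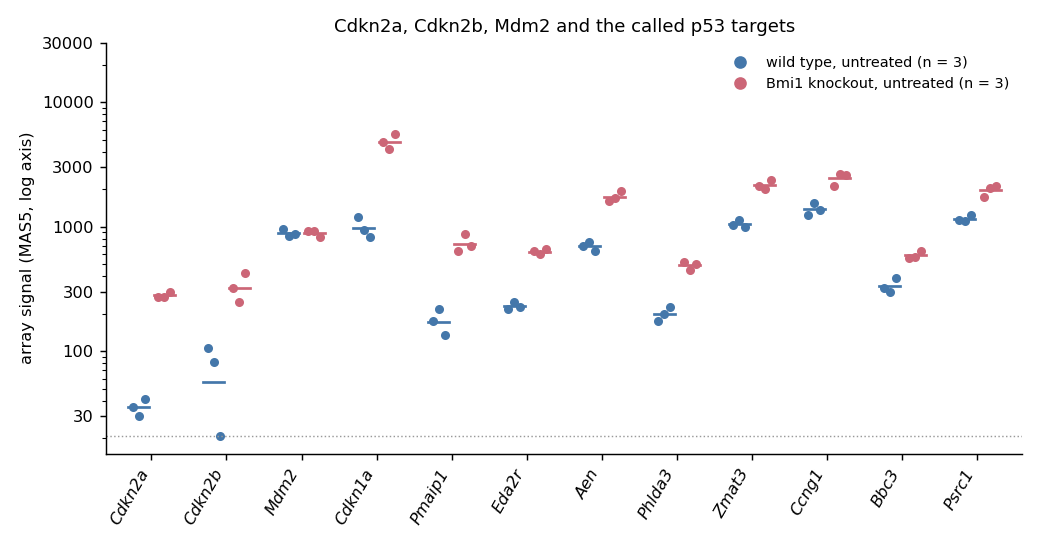
Array signal on a log axis for Cdkn2a, its neighbour Cdkn2b, Mdm2 and the 9 called p53 targets, with 1 point per untreated array (blue, wild type; red, Bmi1 knockout; n = 3 each), a bar at the mean of the log2 signals and a dotted line at the floor of 20.9. The groups do not overlap for any gene but Mdm2, and 1 wild type array of Cdkn2b lies at the floor.

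Promoter windows of the p53 targets were searched for the p53 response element, as its paired decamers without a spacer and at most 2 mismatches over 20 bases with all 4 core C and G bases kept, a motif that is its own reverse complement. The element occurred in 0.326% of all 32851 windows and in those of 42 of 9267 tested genes (0.453%). Of the 29 genes called higher that had a window, 2 held it, Cdkn1a and Ccng1, each with 1 mismatch. They are shown as the 250 bases before the RefSeq start whose window held the element, GRCm38.p6, with the element in capitals. For Cdkn1a this is the outermost start of the gene. The 29 genes had 40 windows, and any other starts of these 2 genes are not shown. A match here is a description of the letters only, and windows without one were not searched farther out.
Cdkn1a (chr17:29090729-29090978, plus strand): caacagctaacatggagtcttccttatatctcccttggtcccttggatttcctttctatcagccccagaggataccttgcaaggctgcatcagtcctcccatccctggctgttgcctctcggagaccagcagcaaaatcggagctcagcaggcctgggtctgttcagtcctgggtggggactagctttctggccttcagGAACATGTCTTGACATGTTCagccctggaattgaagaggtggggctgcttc
Ccng1 (chr11:40755287-40755536, minus strand): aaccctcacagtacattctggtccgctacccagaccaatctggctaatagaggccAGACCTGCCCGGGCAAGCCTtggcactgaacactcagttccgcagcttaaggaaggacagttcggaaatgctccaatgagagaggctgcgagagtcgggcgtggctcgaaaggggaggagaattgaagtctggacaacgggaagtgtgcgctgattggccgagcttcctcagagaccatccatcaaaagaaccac

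Genes of the cell cycle, on which the CDK inhibitors act, had medians near that of all genes. Of 21 genes of the D cyclins, E2F and Rb families 0 were called in limma, 4 had an unadjusted p under 0.05, and the median was 0.04. The kinase gene Cdk6, a partner of the D cyclins, came nearest, with 1895, 1851 and 1788 against 2931, 2573 and 2516 and no overlap (0.53, SE 0.10, adjusted p = 0.0688), and Ccnd1 stood at 0.47 (0.229). No gene of 39 of DNA replication and 40 of mitosis was called in limma (0 and 0 also had an unadjusted p under 0.05), with medians of 0.02 and 0.00. The proliferation marker Mki67 read 6011, 4952 and 5659 in wild type and 5865, 5756 and 5111 in knockout cultures (0.01, 95% interval -0.22 to 0.25). Of 24 genes of DNA damage signalling and repair, 21 lay above 0 with a median of 0.13, and 0 were called, against 2 at an unadjusted p under 0.05. Xrcc1, a scaffold of single-strand break repair, was nearest at 0.31 (0.315).

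Hox genes, which set position along the body axis and are the best known Polycomb targets, were at or near the floor in wild type precursors, and several were measured only in knockout cultures. The 33 Hox genes on the array with a single symbol had so little signal that 32 fell under the filter, so their tests come from a fit of all 18193 genes with no filter, in which 44 genes were called. Of the 6788 genes under the filter, 13 were higher and 2 lower there (0.192% higher, 0.221% in all), and 346 had an unadjusted p under 0.05. The 13 include 7 Hox genes, and a further 2 did not overlap between groups without being called, whereas 0 Hox genes were lower without overlap once signals were raised to the floor. Before that step Hoxd13 was lower without overlap, 23.6, 16.6 and 14.8 against 5.01, 3.27 and 7.67, all near or under the floor. For genes under the filter in general, floored groups did not overlap in 3.26% on the higher side and 2.77% on the lower.

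Within the Hoxa cluster the genes that rose spanned Hoxa2 to Hoxa9. Hoxa2, which patterns the second branchial arch and anterior hindbrain, read 21.6, 31 and 26.5 in wild type and 222, 214 and 318 in knockout cultures, 9.47-fold (log2 3.24, SE 0.19, adjusted p = 0.00133). Hoxa3 read 18.2, 19.8 and 11.2 and 114, 186 and 234, at least 8.16-fold since all wild type arrays lay at the floor (3.03, SE 0.24, adjusted p = 0.0052). Hoxa4 was weaker, with 2.41, 6.89 and 1.06 against 41.8, 49.1 and 45.6, at least 2.17-fold (1.12, SE 0.06, adjusted p = 0.00118). These differences are lower bounds for genes at the floor and were not ranked. Hoxa7 rose from 15.6, 9.34 and 8.49 to 268, 244 and 303, at least 12.9-fold (3.69, SE 0.21, adjusted p = 0.00118), and Hoxa9, a factor of thoracic and lumbar levels and of blood progenitors, from 1.2, 4.59 and 5.37 to 202, 238 and 268, at least 11.2-fold (3.49, SE 0.14, adjusted p = 0.000322). Hoxa10, Hoxa11 and Hoxa13 stood at -0.03, 0.22 and -0.52, with overlapping groups and no signal above 52.1. Hoxa5, which sits among the genes that rose, was the only Hox gene above the filter, and its 2 probe sets disagreed. The one with the higher mean, used by the rule of 1 probe set per gene, had signal in wild type already, 167, 152 and 157 against 157, 254 and 280.4, and did not pass (0.50, SE 0.20, adjusted p = 0.502). The other read 4.25, 28.2 and 8.48 in wild type and 529, 563 and 775 in knockout cultures, a log2 difference of 4.73 with 2 wild type arrays at the floor. With the floor at the 50th percentile, where the second probe set is the one taken, Hoxa5 was called (log2 2.93, adjusted p = 9.99e-05), as it was with the mean of both (log2 2.61, adjusted p = 0.000167). Of the 15 further probe sets of Hox genes, 3 were higher in knockout cultures without overlap, those of Hoxa5, Hoxa3 and Hoxd8.

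Hoxc and Hoxd each had 1 called gene and 1 that did not overlap without being called. Hoxc9 read 8.57, 6.1 and 15.2 in wild type and 105, 126 and 131 in knockout cultures, at least 5.75-fold (2.52, SE 0.14, adjusted p = 0.00118), and Hoxd8 read 2.21, 26.8 and 13.1 and 134, 131 and 127, 5.75-fold with 2 wild type arrays raised to the floor (2.52, SE 0.10, adjusted p = 0.000322). Hoxc4 at 4.55, 44.6 and 22.8 against 107, 71.9 and 99.2 (1.72, SE 0.30, adjusted p = 0.13) and Hoxd9 at 10.5, 4.87 and 9.02 against 40.8, 54 and 69.6 (1.36, SE 0.27, adjusted p = 0.179) did not pass. All 9 genes of the Hoxb cluster that were measured, and Hoxd10 to Hoxd13, overlapped or tied between groups after flooring, with no signal above 67.8.

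**Figure D2:**
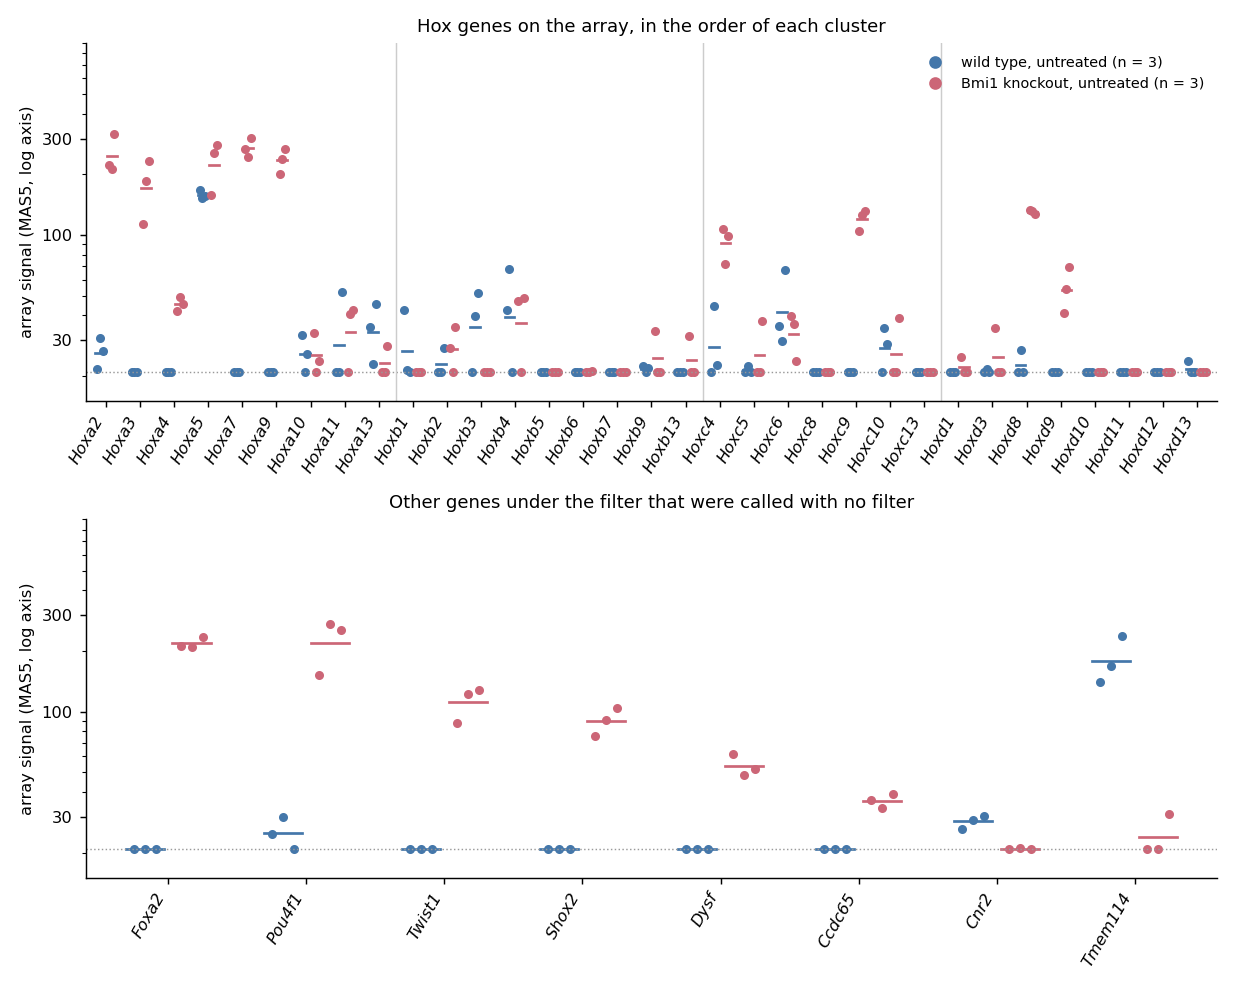
Array signal on a log axis, 1 point per untreated array (blue, wild type; red, Bmi1 knockout; n = 3 each), with a bar at the mean of the log2 signals and a dotted line at the floor of 20.9, to which lower signals were raised; 1 probe set is shown per gene, for Hoxa5 the one that was not called. The upper panel holds the 33 Hox genes in cluster order and the lower one the other 8 genes under the filter that were called with no filter: Hoxa2, Hoxa3, Hoxa7, Hoxa9, Hoxc9 and Hoxd8 stand above 100 on every knockout array, and Tmem114 falls the other way.

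The 5′ sequences of 3 called Hoxa genes are shown because these genes went from the floor or near it to clear signal. Hoxa2 and Hoxa7 had 9 CpG each in the 300-base window and Hoxa9 had 4. The median was 11 over the 11 genes called higher under the filter that had a window, 23.0 over the 29 above it, and 7 over all 32851 windows. The 250 bases before the RefSeq start are printed with each CG in capitals (GRCm38.p6).
Hoxa2 (chr6:52164832-52165081, minus strand): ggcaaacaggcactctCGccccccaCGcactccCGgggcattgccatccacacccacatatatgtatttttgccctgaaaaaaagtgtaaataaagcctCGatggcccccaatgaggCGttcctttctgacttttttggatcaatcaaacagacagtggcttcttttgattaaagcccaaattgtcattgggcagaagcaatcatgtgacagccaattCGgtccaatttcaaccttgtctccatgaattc
Hoxa7 (chr6:52218574-52218823, minus strand): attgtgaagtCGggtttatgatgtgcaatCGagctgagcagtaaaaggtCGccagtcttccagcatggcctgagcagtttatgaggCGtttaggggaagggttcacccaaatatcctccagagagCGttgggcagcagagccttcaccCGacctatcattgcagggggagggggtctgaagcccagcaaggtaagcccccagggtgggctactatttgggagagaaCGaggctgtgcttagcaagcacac
Hoxa9 (chr6:52227371-52227620, minus strand): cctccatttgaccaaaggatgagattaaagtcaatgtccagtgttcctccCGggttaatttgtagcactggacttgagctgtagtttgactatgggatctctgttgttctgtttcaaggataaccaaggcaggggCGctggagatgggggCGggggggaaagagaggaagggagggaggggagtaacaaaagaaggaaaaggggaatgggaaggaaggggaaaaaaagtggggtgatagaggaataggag

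Of the other 8 genes called under the filter 4 encode transcription factors, and all 8 were chosen for description after their values were seen. Foxa2, the forkhead factor of floor plate and endoderm, read 18, 5.27 and 19.8 in wild type and 211, 209 and 235 in knockout cultures, at least 10.4-fold (3.38, SE 0.05, adjusted p = 1.15e-06). Pou4f1, a POU factor of sensory neurons, read 24.6, 30.2 and 20.2 and 152, 272 and 253, 8.76-fold with 1 wild type array raised to the floor (3.13, SE 0.34, adjusted p = 0.0275). Twist1, a bHLH factor of mesenchyme, was at least 5.31-fold higher, 5.91, 4.56 and 3.72 against 87.6, 123 and 127 (2.41, SE 0.13, adjusted p = 0.00118). The limb and heart homeobox gene Shox2 was at least 4.28-fold higher, with 1.25, 10.9 and 11.8 and 75.8, 91 and 104 (2.10, SE 0.27, adjusted p = 0.0494). Dysf, a membrane repair protein of muscle, and Ccdc65, a protein of motile cilia, rose to weak signals of 61.4, 48.3 and 52 and 36.3, 33.2 and 39.2. Of the 2 that fell, Tmem114 dropped from 141, 168 and 237 to 17.2, 12.7 and 31.2 (-2.90, SE 0.26, adjusted p = 0.0108), with 2 knockout arrays at the floor. The cannabinoid receptor gene Cnr2 read 26.3, 29.1 and 30.4 against 10.3, 21 and 2.21, all close to the floor (-0.45, SE 0.05, adjusted p = 0.0344). The gene lists also held uncalled members under the filter whose groups did not overlap. The homeobox gene Meis2 read 39.6, 86.3 and 46.4 and 206, 222 and 234 (2.02, SE 0.30, adjusted p = 0.0786), and its 3 other probe sets gave 0.72 to 2.16. The interneuron homeobox gene Dlx2 read 39.8, 38.2 and 15.6 against 82.3, 97.9 and 81.7 (1.46, SE 0.30, adjusted p = 0.204).

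These 15 calls have limits that most of the others do not. Groups lying wholly at the floor have no spread there, which narrows the SE of such a gene. All wild type arrays lay at the floor for 10 of the 15. Above the filter this held for 1 called gene, Robo3. With consecutive numbers as pairs 1 of 15 stayed called, Foxa2 (adjusted p = 0.0088), and the lowest for the Hox genes was 0.0684. With log2(signal + 16) in place of the floor, 12 stayed called, among them all 7 Hox genes (adjusted p = 0.00121 to 0.0263), and Dysf, Ccdc65 and Cnr2 did not. Without each array in turn 11 stayed called throughout, the 7 Hox genes, Foxa2, Twist1, Dysf and Ccdc65. Pou4f1 was lost without 1, 3, 4, 5, 6, 7 or 9 (up to 0.122), Shox2 without any array but 7 or 9 (up to 0.168), Cnr2 without any but 1 (up to 0.129), and Tmem114 without 2 (0.0516). Without both wild type replicate 1 and knockout replicate 6, 10 stayed called, and Pou4f1, Shox2, Hoxa3, Hoxa4 and Dysf did not (0.0508 to 0.325). With only the 6 untreated arrays in the fit 10 stayed called as well, and Hoxa3 (0.0806), Pou4f1 (0.0754), Ccdc65 (0.0640), Cnr2 (0.184) and Tmem114 (0.0806) did not. Other probe sets existed for 6 of the 15 genes, and 5 of these 8 had the same sign. Hoxa3 had 1.61, 0.11 and -0.28 on its others, Hoxd8 had 1.44, Hoxa9 0.17, Hoxa4 -0.01, Pou4f1 1.49 and Shox2 0.00.

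Developmental transcription factors were also called above the filter. Of 22 patterning factors outside the Hox clusters tested, 3 were called higher and 0 lower, beside 0.324% and 0.0526% of all genes. The median was 0.07 (-0.04 without replicate 4, -0.01 without replicate 1 and 0.02 without replicates 1 and 6). The LIM homeodomain factor Lhx2, which acts in forebrain and eye, rose from 116, 86.5 and 55.4 to 351, 359.6 and 358, 4.34-fold (log2 2.12, SE 0.22, adjusted p = 0.00407). Dmrta2, a factor of the cortical hem region, went from 73.9, 77.5 and 51.3 to 181, 262 and 274 (log2 1.82, SE 0.20, adjusted p = 0.0042; blocked limma fit, adjusted p = 0.0617), and Onecut2, a cut homeodomain factor of liver and motor neurons, from 118, 124 and 145 to 432, 373 and 582 (log2 1.82, SE 0.16, adjusted p = 0.00167). The 2 other probe sets of Onecut2 gave 1.67 and 2.06. Lhx2, Dmrta2 and Onecut2 stayed called without any 1 array. Otx1, a forebrain homeobox gene, was nearest among the rest, with 532, 707 and 735 against 988, 1109.8 and 1089 (0.70, SE 0.14, adjusted p = 0.0966), and its neighbour Ehbp1, which encodes an endocytic adaptor, was called at 0.68 (0.0129; lost without 1, 4, 5 or 6, up to 0.0812, and in the blocked fit, 0.0915).

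Outside that list, further regulators of development rose. Myod1, the master factor of skeletal muscle, read 83.3, 76.4 and 118 in wild type and 206, 229 and 299 in knockout cultures (log2 1.41, SE 0.20, adjusted p = 0.02). Zfhx4, a zinc finger homeobox factor, read 143, 154 and 133 and 356, 346 and 287 (2.3-fold, adjusted p = 0.00167), Mab21l2, a gene of eye development, 494, 497 and 553 and 1075, 1006 and 1179 (log2 1.08, SE 0.09, adjusted p = 0.00167), and the coactivator gene Eya4 69.6, 73.6 and 78.1 and 135, 158 and 169 (log2 1.06, SE 0.13, adjusted p = 0.00962). Zfhx4 and Mab21l2 stayed called without any 1 array, Eya4 was lost without replicate 1, 4 or 6 (up to 0.0644) and in the blocked fit (0.0617), and Myod1 without 1, 3, 4 or 6 (up to 0.0987). The muscle gene Actc1, cardiac alpha-actin, was 3.91-fold higher at 65.2, 114 and 68.4 against 271, 273 and 409.7 (log2 1.97, SE 0.26, adjusted p = 0.0139; blocked limma fit, adjusted p = 0.0919; lost without 1, 5 or 6, up to 0.0759). It was the only one of 12 sarcomere and smooth muscle genes called, and the median of that list was 0.03. The embryonic myosin Myh3 stood at 1.35 (0.368).

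Robo3, a receptor of commissural axons, had the largest difference of all genes tested. It passed the filter of log2 6.25 only through its knockout arrays, as its untreated wild type mean was 4.39. It read 5.17, 19.7 and 2.98 in wild type and 421, 609 and 762 in knockout cultures. As all wild type arrays lay at the floor, the difference is at least 27.8-fold (log2 4.80, SE 0.18, adjusted p = 6.48e-06). It was called under every alternative in which it was tested. Its other probe set lay under the filter, with means of 10.4 in wild type and 29.9 in knockout cultures (log2 0.68). The large difference therefore rests on 1 probe set. With the mean of both probe sets, Robo3 lay under the filter and was not tested. It was the 1 gene called of 34 axon guidance genes tested, beside 0.324% of all genes called higher. Of the 34, 8 had an unadjusted p under 0.05, beside 990 of all 11405. The median of the list was 0.08 (-0.03 without replicates 1 and 6). The ephrin receptor gene Epha3 at 0.62 (0.0545) and the netrin receptor gene Dcc at 0.51 (0.0561) were nearest, each without overlap. Single neuropeptide genes were called. Pnoc, the precursor of nociceptin, read 302, 233 and 236 against 842, 802 and 804 (log2 1.68, SE 0.18, adjusted p = 0.00407), and Adcyap1, which encodes the peptide PACAP, 107, 121 and 104 against 212, 206 and 231 (log2 0.97, SE 0.11, adjusted p = 0.00761; lost without 6, 0.0589, and in the blocked fit, 0.0913). Among 12 markers of inhibitory interneurons and neuropeptides 0 were called in limma, 6 had an unadjusted p under 0.05, and the median was 0.12 (-0.03 without replicates 1 and 6). Somatostatin, Sst, read 77.4, 218 and 126 and 479.6, 461 and 450.0 (1.85, SE 0.35, adjusted p = 0.0868) and the glycine transporter gene Slc6a5 86.3, 113 and 103 and 215, 146 and 208 (0.90, SE 0.19, adjusted p = 0.122). The summed signal of that list was 8799 to 10968 in wild type and 9899 to 12031 in knockout cultures. Its part in the rise of Robo3, Pnoc, Adcyap1 and the transcription factors was not tested.

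Genes of 2 RNA-binding proteins of fetal tissues were also called. Igf2bp1 read 34.6, 53.6 and 16.6 in wild type and 287, 222 and 274 in knockout cultures, 7.67-fold between the means of the log2 signals, with 1 wild type array raised to the floor (log2 2.94, SE 0.37, adjusted p = 0.011; lost without 1, 2 or 6, up to 0.0759). Igf2bp3 read 744, 680.2 and 569 and 1503, 1323 and 1417 (log2 1.10, SE 0.13, adjusted p = 0.00611), and its 5 other probe sets above the filter gave 0.55 to 1.08. Neither was called without both replicates 1 and 6. Both were among 5 tested genes of the Igf2bp, Lin28 and Hmga families, beside 0.324% of all genes called higher. Hmga2 stood at 0.19 (0.94). Of the 5, 2 lay below 0. The median of 0.19 was -0.09 without replicate 1 and -0.06 without replicates 1 and 6. Lin28b, under the filter, read 22.9, 1.3 and 14.7 and 45.6, 34.5 and 45.3 (0.94, SE 0.13, adjusted p = 0.0589). Of 22 imprinted genes 1 was called higher, beside 0.324% of all genes. It was Grb10, an adaptor that dampens insulin and IGF receptors, at 811, 1025 and 648 against 1819.9, 1958 and 2151 (log2 1.28, SE 0.16, adjusted p = 0.0114; blocked limma fit, adjusted p = 0.0688; lost without 1, 4 or 6, up to 0.0768). Zdbf2 was nearest among the others at 1.09 (0.0897) and Igf2 stood at 0.17 (0.691).

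The remaining rises covered unrelated functions. Skap2, an adaptor of integrin signalling in blood cells, read 589, 603 and 681 in wild type and 1246, 1314 and 1262 in knockout cultures (log2 1.03, SE 0.11, adjusted p = 0.00407). Its other 2 probe sets also read higher, the weaker of them by 0.91, and it stayed called without any 1 array. The aquaporin gene Aqp6 went from 175, 94.2 and 136 to 308, 498 and 509 (log2 1.71, SE 0.25, adjusted p = 0.025; blocked limma fit, adjusted p = 0.123; lost without 4, 5, 6, 7 or 9, up to 0.131). Ddit4l, an inhibitor of mTOR signalling, went from 72.2, 66 and 71.4 to 185, 232 and 241 (log2 1.64, SE 0.15, adjusted p = 0.00167) and stayed called without any 1 array. Pqlc3 (1.60), BC034090 (1.23), the stress kinase Map3k20 (1.01), the monocarboxylate transporter Slc16a4 (0.91) and the heparan sulfate sulfotransferase Hs3st4 (0.85) had adjusted p of 0.00565 to 0.0365. Of these 5, BC034090 alone stayed called without any 1 array. Pqlc3 and Map3k20 were lost without 1, 3, 4, 5, 6, 8 or 10 (up to 0.155 and 0.148), and Slc16a4 and Hs3st4 without any but 3 (up to 0.144 and 0.148). None of the 5 passed in the blocked fit (adjusted p = 0.0617 to 0.0919). Pkdcc, a secreted tyrosine kinase, went from 933, 894 and 1029 to 1423, 1457 and 1771 (log2 0.70, SE 0.11, adjusted p = 0.0383), and the mitochondrial protein gene Chchd7 from 657, 781 and 702 to 1089, 1218 and 1029 (log2 0.64, SE 0.10, adjusted p = 0.0448). Pkdcc was lost without any of the 10 arrays and Chchd7 without any but 3 (up to 0.133 and 0.190), and both in the blocked fit (0.0535 and 0.0915). The smallest called difference was that of the exocyst subunit Exoc4 (0.47, 1.39-fold), which was lost without any of the 10 arrays in turn (up to 0.207) and in the blocked fit (0.114). The nearest gene beyond the threshold was the receptor kinase gene Alk, at 51.8, 61.8 and 86.7 against 128, 164 and 143 (1.15, SE 0.19, adjusted p = 0.0504).

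Above the filter 6 genes fell. With only the 6 untreated arrays in the fit 2 were lower, and Scd1, Tmem51, Rasd2 and St6galnac4 were not called. Cacna2d3, an auxiliary subunit of voltage-gated calcium channels, read 592, 642 and 675 in wild type and 356, 312 and 358 in knockout cultures (log2 -0.90, SE 0.10, adjusted p = 0.00499) and stayed called without any 1 array. It was the only one of 13 calcium channel subunits called. Hsd11b1, which regenerates active glucocorticoid, went from 199, 233 and 212 to 98.5, 113 and 86 (log2 -1.12, SE 0.15, adjusted p = 0.0169; lost without 1, 2, 3, 5 or 6, up to 0.0871), and the enzyme of the reverse reaction, Hsd11b2, stood at 0.36 (0.236). The desaturase gene Scd1 went from 941, 1211 and 1139 to 618, 629 and 585 (log2 -0.84, SE 0.11, adjusted p = 0.011; lost without 5 or 6, up to 0.0766). Scd1 was the only one of 14 genes of fatty acid synthesis called, and 12 of the 14 lay below 0 with a median of -0.06. Of 20 genes of cholesterol synthesis and uptake 0 were called in limma, 7 had an unadjusted p under 0.05, 19 lay below 0, and the median was -0.22. The sterol dehydrogenase gene Nsdhl, at 2403, 2464 and 2403 against 1746, 1938 and 1889.5, was nearest (-0.38, SE 0.08, adjusted p = 0.118). Tmem51 (-1.17), the small GTPase gene Rasd2 (-0.71) and the sialyltransferase gene St6galnac4 (-0.54) had adjusted p of 0.0321 to 0.0346. The other probe set of Rasd2 gave -0.95 and that of St6galnac4 gave 0.04. Tmem51 was lost without any array but 3, Rasd2 without any but 2, and St6galnac4 whichever array was omitted (up to 0.164, 0.158 and 0.135). In the blocked fit Cacna2d3 passed (0.0435) and the other 5 did not (0.0653 to 0.156).

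Markers of the granule cell lineage held no called gene. Of 14 precursor factors 0 were called in limma, 0 had an unadjusted p under 0.05, and the median was -0.06. Meis2, also on that list, lay under the filter and was higher without overlap. It did not pass in the limma fit with no filter (2.02, SE 0.30, adjusted p = 0.0786). Atoh1 stood at 0.01 (95% interval -0.27 to 0.30). Of 23 genes of maturing granule neurons 0 were called, 6 had an unadjusted p under 0.05, 18 lay below 0, and 7 were lower without overlap between groups, beside 5.73% of all genes on that side (7.62% on the higher one). The median was -0.22 (-0.06 without replicate 4), and it was 0.08 in the Shh-treated cultures. The neuronal splicing factor Rbfox3 read 9394, 7644 and 9107 in wild type and 6473, 6970.4 and 6594 in knockout cultures (-0.38, SE 0.10, adjusted p = 0.229), and the bHLH factor Neurod2 2103, 1664 and 2036 and 1490.1, 1264 and 1508 (-0.44, SE 0.12, adjusted p = 0.246). Gabra6, the GABA receptor subunit that marks mature granule cells, lay under the filter and read 245, 251 and 304 against 73.6, 108 and 139.9 (-1.36, SE 0.22, adjusted p = 0.109), with -1.12 on its other probe set.

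The Shh pathway was examined because the series asks about the response to it. In these untreated cultures 0 of 15 genes were called in limma, 5 had an unadjusted p under 0.05, and the median was 0.24 (0.15 without replicate 6 and 0.14 without replicates 1 and 6). The effector gene Gli1 read 853, 764 and 857 in wild type and 1193, 1156 and 1199 in knockout cultures (0.52, SE 0.11, adjusted p = 0.113), and the receptor gene Ptch1 stood at 0.24 (0.437).

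Genes of the Polycomb complexes held no called gene. Of 18 PRC1 genes and 11 of PRC2, 0 were called in limma, 1 and 0 had an unadjusted p under 0.05, and the medians were 0.00 and 0.02. The Bmi1 relative Pcgf2 stood at -0.04 and the methyltransferase gene Ezh2 at 0.03 (95% interval -0.23 to 0.29). Of the 11 tested genes that flank Bmi1 on its chromosome 0 were called, with 3 at an unadjusted p under 0.05, and the next coding gene, Commd3, stood at 0.30 (0.528). The 43 called genes lay on 18 chromosomes, 4 of them on that of Bmi1.

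Markers of other cells that such cultures can hold were tested in the same way. Of 21 microglia and macrophage genes 0 were called in limma, 7 had an unadjusted p under 0.05, 20 lay below 0, and the median was -0.44 (-0.29 without replicate 1). Cx3cr1, a microglial receptor, read 553, 488 and 905 in wild type and 284, 344 and 403 in knockout cultures (-0.88, SE 0.23, adjusted p = 0.246). The summed signal of that list was 11502 to 16608 in wild type and 10066 to 11295 in knockout cultures, without overlap, and its part in the genes that fell was not tested. Medians were 0.15 over 13 genes of fibroblasts and meninges, -0.01 over 20 of astrocytes, -0.05 over 15 of oligodendrocytes, 0.16 over 10 of Purkinje cells (-0.27 without replicates 1 and 6) and -0.02 over 10 of endothelium, and 0 were called in each. At an unadjusted p under 0.05 these had 3, 2, 2, 1 and 1 genes. Without single arrays their medians ranged over 0.05 to 0.23, -0.09 to 0.10, -0.17 to 0.02, -0.08 to 0.42 and -0.07 to 0.07, so that all but the first took either sign.

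**Figure D3:**
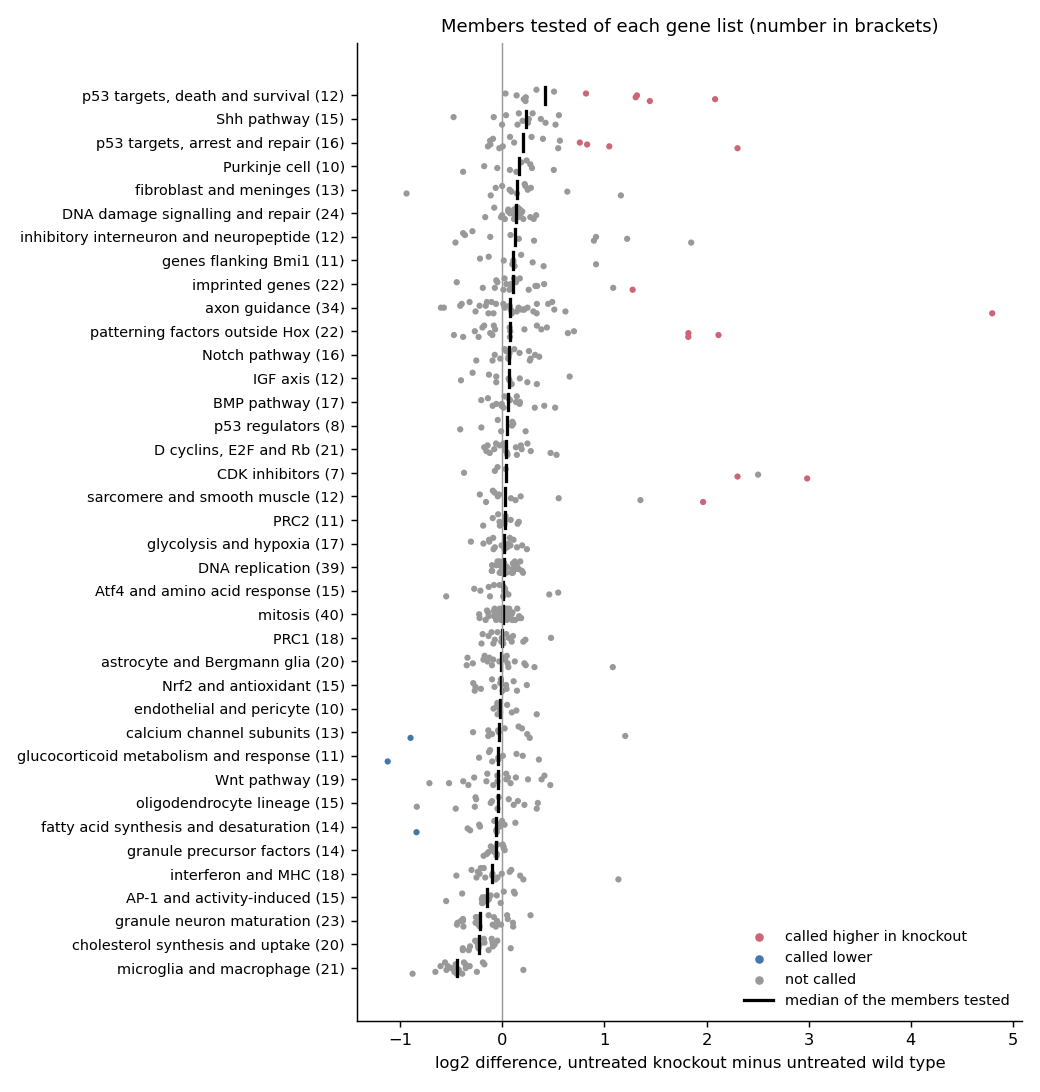
Log2 difference between untreated knockout and untreated wild type cultures for every tested member of each list with at least 7 tested members, 1 point per gene (red, called higher; blue, called lower; grey, not called), with a black line at the list's median. The 2 p53 lists lie to the right with medians of 0.20 and 0.42, and the Shh pathway list, without a called gene, at 0.24. To the left lie the microglial list at -0.44 and those of cholesterol synthesis and maturing granule neurons, both at -0.22. Most called genes are single points far from their list's median.

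The called genes were set beside the same comparison in Shh-treated cultures. Its 4 arrays enter no mean of the untreated comparison, but they do enter the estimate of spread: with only the 6 untreated arrays in the fit 30 of the 11405 genes were called, and 34 without any 1 of replicates 7 to 10. All 43 had the same sign there and 29 were called (0.728% of all genes tested were). Cdkn2a read 31.1 and 24 in wild type replicates 7 and 9 and 329 and 451 in knockout replicates 8 and 10, and Robo3 7.36 and 14.4 against 219.9 and 222. A test of the difference between the 2 conditions (0.00877% of all genes tested passed it) gave 0 of the 43 at an adjusted p under 0.05, and 12 at an unadjusted one. Of these 12, 4 had a larger genotype effect with Shh, by 0.83 for Cdkn2a, 0.54 for Eda2r, 0.95 for Phlda3 and 1.18 for Actc1. The other 8 had a smaller one, among them Robo3 (-1.39), Cdkn1a (-0.59) and Myod1 (-0.91). Of the 15 genes under the filter 12 had the same sign with Shh and the other 3, Dysf, Ccdc65 and Cnr2, lay at the floor on all 4 arrays. With Shh 7 of the 15 were called, and 0 differed between conditions at an adjusted p under 0.05. Hoxa4 and Dysf were nearest in that limma test (both 0.0504). Hoxa4 differed by only 0.07 with Shh, at 12.6 and 14.8 against 23.0 and 15.4, with 3 of these arrays at the floor. Hoxa9 read 3.89 and 19.1 against 159 and 218, Hoxa7 6.85 and 17.7 against 84.6 and 155 and Foxa2 17 and 5.61 against 233 and 222.

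**Figure D4:**
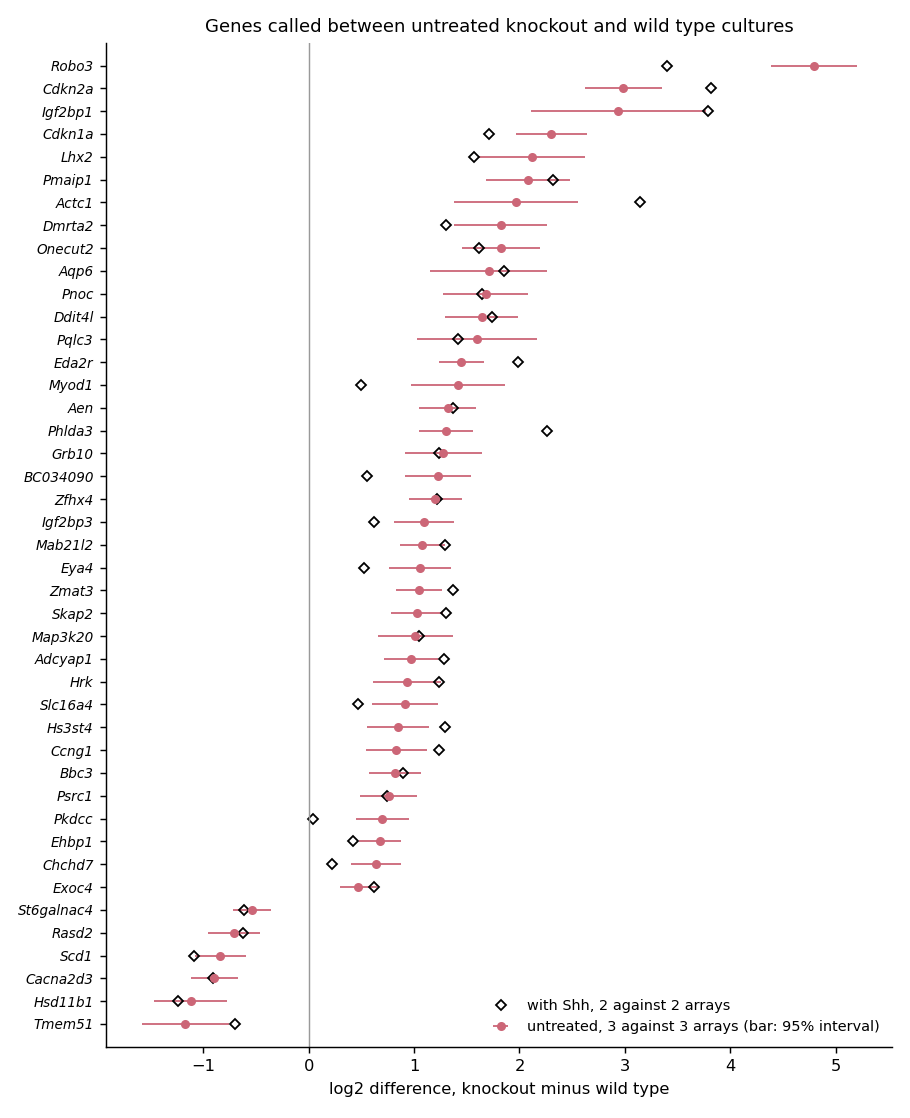
Log2 difference between knockout and wild type for the 43 called genes in order of size, in untreated cultures (red, with the 95% interval of the model, 3 against 3 arrays) and in Shh-treated cultures (open diamonds, 2 against 2 arrays). Every diamond lies on the same side of 0 as its red point, and Robo3 has the largest untreated difference at 4.80.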

How the data were processed

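RNA of each culture was measured on 1 Affymetrix Mouse Genome 430 2.0 array. Per the submitters' processing notes, GCOS 1.2 and MAS5 were used, and the deposited values are the authors' intensity per probe set on a linear scale, with a 2% trimmed mean of 500.003 on the 1 array checked. Of 45101 probe sets, 64 controls were left out, 34945 had 1 gene symbol in the platform annotation, 932 several and 9160 none; 34741 matched RefSeq (GRCm38.p6), and no column was left unused. Intensities were raised to a floor at the 25th percentile (20.9) and taken to log2. The deposited files hold no log2 values. The probe set with the highest mean stood for each of 18193 genes. The 11405 with a mean over all 10 arrays above the 50th percentile (log2 6.25) were tested. A model over all 10 arrays (limma 3.58.1, lmFit and eBayes, R 4.3.3) gave the tests, with Benjamini-Hochberg adjustment and a threshold of 0.05. The code was tested on simulated data. Sequences and tables were handled in Python 3.11.15 with pandas 2.3.3.

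Running numbers name no pairs. Deviations from the group means correlated at 0.278, 0.120 and 0.218 for arrays of consecutive numbers and at -0.265 to 0.0529 for the others, so a fit with consecutive numbers as a block was used as an alternative, with the pairing coming from the data alone. Other alternatives were the arrays fitted, the floor, the filter, the mean over probe sets, quantile normalization, trend and robust settings, and leaving out arrays. The alternatives for genes under the filter, and the values of further probe sets, were chosen after seeing the data. The named genes were to be the 30 largest called rises and 15 largest falls, the called or up to 4 nearest members of 42 lists, and the 5 uncalled genes nearest the threshold; other genes named were chosen after their values were seen. The comparison and the lists were chosen with earlier results of these data known.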

Additional observations from a re-analysis of the deposited data

How the results depend on the processing

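The number of genes called between untreated genotypes, 43, was 23 with the replicate block of consecutive numbers, 74 with the floor at the 50th percentile, 82 with trend and robust settings and 10 without both 18S-high arrays, and 19 to 50 when each array was left out in turn. Called p53 targets, 9, fell to 3 without both 18S-high arrays and numbered 6 to 9 without single arrays. Called members of all lists, 21, were 36 with the higher floor, 8 without both 18S-high arrays and 13 to 22 without single arrays. Of the 43 genes, 29 were called with Shh, 14 of the 19 still tested with the filter at the 75th percentile, 19 of 36 with the mean of all probe sets, and 15 to 29 without single arrays. The 15 genes under the filter became 1 with the replicate block, and 16 to 31 without single arrays. Of the 43 genes, 19 stayed called without any 1 array, and 8 in every setting in which they were tested: Robo3, Cdkn2a, Cdkn1a, Lhx2, Onecut2, Eda2r, Phlda3 and Zfhx4. No called difference changed sign in these settings. Medians of lists moved by more than their spread over the knockout arrays in 77 of 838 settings. The 838 include settings that change only the estimate of spread and cannot move a median. These are the block, the fit of the 6 untreated arrays, the trend and robust settings, and leaving out an Shh array. The causes were not tested, except that leaving out arrays or fitting the block uses fewer degrees of freedom. Leaving out 1 Shh array leaves its group with 1 array, assumed to vary like the others. The median SE over tested genes was 0.124, so small differences could not pass.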
